A study of Mus musculus with 47 samples.

Results

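Expression of NRF2, its inhibitor KEAP1 and 8 antioxidant genes was examined in 12 RNA-seq libraries of mouse macrophages. The 10 genes (Nfe2l2, Keap1, Nqo1, Gclm, Gclc, Txnrd1, Slc7a11, Srxn1, Prdx1 and Sod2) were taken by gene symbol, out of 51912 genes in the tables of bone marrow-derived macrophages (BMDMs) and out of 12771 to 23772 genes in the tables of Raw264.7 cells, a mouse macrophage cell line. All 10 were found in every table, and all 10 are protein-coding genes. The study asked how ZMYND8, a reader of histone marks, restrains inflammatory gene expression in macrophages.

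BMDMs are macrophages grown from bone marrow in culture. Those labelled WT came from littermates with floxed Zmynd8 and no Cre, and those labelled cKO carried the same floxed allele with Cre expressed from the Lyz2 locus, which is active in the myeloid lineage. Both genotypes were left untreated (NT), exposed for 6 h to LPS at 100 ng/ml (a bacterial product that drives classical polarization), or exposed for 6 h to IL-4 at 20 ng/ml (a cytokine that drives alternative polarization). Each BMDM library pooled 3 biological replicates, so that every condition has 1 library. The Raw264.7 lines were made with lentiviral CRISPR and likewise have 1 library each. A Zmynd8 KO line was sequenced without rescue (Zmynd8 KO), after reintroduction of the wild-type protein (WT Zmynd8), or after reintroduction of a mutant whose acidic residues in the disordered region were changed to alanine (D/E-A). The labels of these 3 libraries give no treatment, while the study's text describes WT Zmynd8 and D/E-A cells as sequenced following LPS and does not say so of Zmynd8 KO. A p65 KO line under LPS was sequenced without rescue (p65 KO), with wild-type p65 (WT p65) or with p65 K122R, in which the acetylated lysine is replaced by arginine (K122R). The column taken as WT p65 names wild type and LPS but not the p65 KO background. With 1 library a group, a difference cannot be checked against replicates, and in these bulk libraries fewer cells of a type and less RNA per cell cannot be told apart.

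NRF2, the product of Nfe2l2, is a transcription factor that binds antioxidant response elements (AREs) together with small MAF proteins. In unstressed cells KEAP1 holds NRF2 in the cytoplasm and hands it to a ubiquitin ligase, and oxidants or electrophiles that modify KEAP1 let NRF2 accumulate without any need for a change in its mRNA. Well known NRF2 targets are Nqo1 (a quinone reductase), Gclm and Gclc (the modifier and catalytic subunits of the enzyme that starts glutathione synthesis), Txnrd1 (thioredoxin reductase), Slc7a11 (the cystine importer that feeds glutathione synthesis), Srxn1 (which repairs overoxidized peroxiredoxins) and Prdx1 (a peroxiredoxin that removes hydrogen peroxide). Sod2 encodes the mitochondrial superoxide dismutase and is best known as a target of NF-κB.

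The genes lie at the following positions in the deposited annotation (mm10, the build in the study's methods). Nfe2l2 is at chr2:75675513-75704663, minus strand. Keap1 is at chr9:21229730-21239332, minus strand. Nqo1 is at chr8:107388225-107403205, minus strand. Gclm is at chr3:122245557-122267215, plus strand. Gclc is at chr9:77754518-77794489, plus strand. Txnrd1 is at chr10:82833951-82897724, plus strand. Slc7a11 is at chr3:50364936-50499087, minus strand. Srxn1 is at chr2:152105524-152111376, plus strand. Prdx1 is at chr4:116685599-116700000, plus strand. Sod2 is at chr17:13007839-13018119, plus strand. RefSeq (build GRCm38.p6) gave promoter sequence for 9 of the 10 genes, and for 8 of them a RefSeq start was at the deposited 5′ end of the gene. For Slc7a11 the RefSeq start was 55474 bases from the deposited end, and it was not counted. Txnrd1 has 2 further RefSeq starts, 25255 and 26390 bases from the deposited end, which were not counted either.

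The 250 bases before the start are printed for 4 genes, because they include the pair that rose most after LPS in WT BMDMs (Sod2 and Prdx1) and a pair that was lower (Gclm and Nfe2l2). The windows are chr4:116685349-116685598, plus strand (Prdx1), chr17:13007589-13007838, plus strand (Sod2), chr3:122245307-122245556, plus strand (Gclm) and chr2:75704664-75704913, minus strand (Nfe2l2), all 5′ to 3′ on the strand of the gene. Capitals mark matches, on either strand, to the ARE core TGACNNNGC in Prdx1, Gclm and Nfe2l2, and to the NF-κB consensus in Sod2 and, further from the start, in Prdx1.
Prdx1: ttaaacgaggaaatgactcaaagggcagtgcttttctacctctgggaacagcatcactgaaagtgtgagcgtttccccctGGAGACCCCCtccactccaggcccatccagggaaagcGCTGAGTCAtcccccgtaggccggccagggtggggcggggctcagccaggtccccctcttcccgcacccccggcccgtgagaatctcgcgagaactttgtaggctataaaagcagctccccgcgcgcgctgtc
Sod2: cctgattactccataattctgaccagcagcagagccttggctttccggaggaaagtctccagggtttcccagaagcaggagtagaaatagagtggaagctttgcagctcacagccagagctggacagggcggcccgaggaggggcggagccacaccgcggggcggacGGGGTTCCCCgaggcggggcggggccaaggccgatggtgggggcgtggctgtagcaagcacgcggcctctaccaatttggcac
Gclm: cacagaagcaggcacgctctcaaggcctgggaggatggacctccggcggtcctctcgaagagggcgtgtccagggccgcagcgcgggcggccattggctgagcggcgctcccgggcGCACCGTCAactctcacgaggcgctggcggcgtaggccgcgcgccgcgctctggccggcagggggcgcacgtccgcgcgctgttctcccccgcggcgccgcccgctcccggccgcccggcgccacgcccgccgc
Nfe2l2: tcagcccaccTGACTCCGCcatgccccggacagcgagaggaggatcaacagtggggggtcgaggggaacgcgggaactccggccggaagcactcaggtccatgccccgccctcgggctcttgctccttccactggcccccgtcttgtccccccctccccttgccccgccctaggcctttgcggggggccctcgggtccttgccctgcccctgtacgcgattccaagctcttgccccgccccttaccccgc

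The ARE core was matched in the windows of Prdx1, Gclm and Nfe2l2, 3 of the 8 genes, and it was matched in 10.2% of all 32851 RefSeq promoter windows of 250 bases, which include further starts of a gene. The nearer of the further Txnrd1 starts held 1 match. In Prdx1 the match ran from 133 to 125 bases before the start on the antisense strand and overlapped the AP-1 motif TGANTCA. In Gclm it ran from 134 to 126 bases before the start, also antisense, and in Nfe2l2 from 240 to 232 bases before the start on the sense strand. The AP-1 motif was matched in 6.75% of all windows, and Srxn1 and Prdx1 held 2 matches each. The NF-κB consensus was matched in Sod2, from 83 to 74 bases before the start, and in Prdx1, from 170 to 161 bases before it, against 5.0% of all windows. These matches describe letters only, and enhancers further away were not searched.

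The BMDM libraries held 22597421 to 28386625 estimated counts, and the Raw264.7 libraries 15127110 to 21042627 reads. Several libraries stood apart. Summed over 8 neutrophil markers, the WT and cKO IL-4 libraries had 382 and 514 CPM (counts-per-million), against 2.33 to 4.22 in the 4 NT and LPS libraries, with Ltf at 71.4 and 80.2 CPM after IL-4 and at most 0.321 CPM otherwise. The IL-4 libraries also carry sample numbers apart from the other 4. The same list summed to 4422 to 10384 RPM (reads-per-million) in the 3 Zmynd8 Raw264.7 libraries. Only 3 of its genes are listed in the p65 tables and sum to 0.180 to 0.319. Xist had 7109 to 8467 reads in the former libraries and at most 3 in the latter. A list of 4 B cell markers summed to 119 to 161 RPM in the former, and the 3 listed for the latter to 0.575 to 1.68. The study names Raw264.7 for these lines, but their markers differ this far, and the reason was not tested. The name is kept here as the study gives it. Among the BMDM libraries Xist ranged from 246 to 1108 CPM, with 739.7 in WT NT and 323 in cKO NT. Of 7 macrophage markers 0 were at a count of 0 in any library, and they summed to 9397 to 18384 CPM in BMDMs and to 1395 to 8682 RPM in Raw264.7 cells. Zmynd8 was not lower in the libraries labelled cKO by more than the call rule asks (87.1 and 81.5 CPM in NT, 79.0 and 86.8 after LPS, 128 and 151 after IL-4 for WT and cKO), and gene counts do not separate the floxed exons. Rela, which encodes p65, had 1601 reads in WT p65, 5850 in K122R and 765 in p65 KO. Zmynd8 had 485 reads in WT Zmynd8 and 497 in D/E-A. Its deposited value in Zmynd8 KO was 116, against 506 in WT Zmynd8, and that value did not come out as whole reads.

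In WT NT BMDMs, Prdx1 was by far the most abundant of the 10 mRNAs per unit length. Its TPM (transcripts-per-million, values that are divided by transcript length) ranged from 684 to 7858 over the 6 libraries, with a median of 2781. The medians over the same libraries were 129.8 TPM for Nfe2l2, 118 for Sod2, 108 for Txnrd1, 96.5 for Gclm, 66.2 for Srxn1, 40.6 for Keap1 and 16.3 for Gclc. Nqo1 (2.67 TPM) and Slc7a11 (1.94 TPM) had the lowest medians. With 1 library a condition, neighbours in this order cannot be ranked beyond error, and the order differed between libraries: after LPS, Sod2 stood at 470.07 TPM in WT and 463 TPM in cKO, second to Prdx1.

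**Figure D1:**
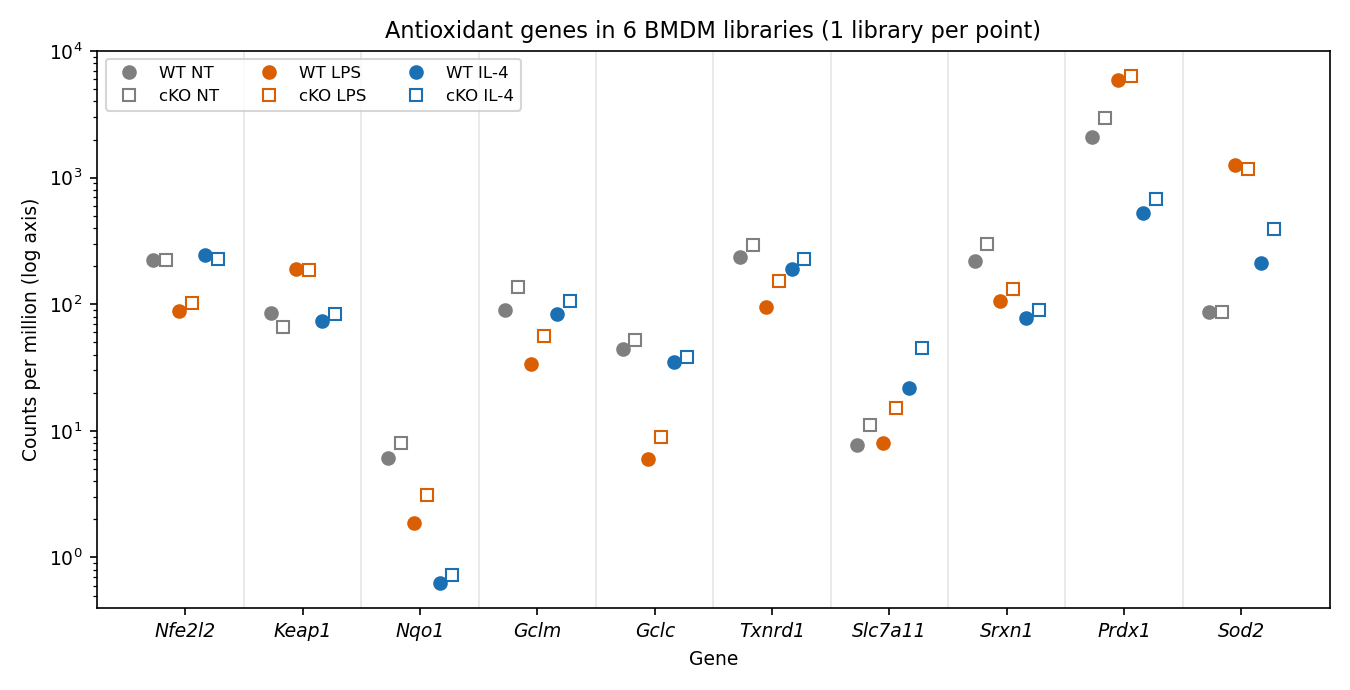
CPM (log axis) of the 10 genes in the 6 BMDM libraries, 1 point a library, filled circles for WT and open squares for cKO, grey for NT, orange for LPS and blue for IL-4. Sod2 and Nqo1 span the widest ranges, 14.7 and 12.6 times from the lowest to the highest library, and Gclm and Txnrd1 are higher in cKO than in WT under each treatment.

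Differences between the libraries labelled cKO and WT were examined first, since they bear on what loss of Zmynd8 does. Calls were made among genes averaging 10 counts or more. They needed a 1.2-fold difference and, after Benjamini-Hochberg adjustment over all genes tested, p under 0.05 by an exact binomial test (two-sided) of the reads of both libraries. That test compares libraries, not genotypes. Values below are CPM, and log2 fold changes are taken on CPM plus 1, or on TPM plus 1 on the TPM scale. Intervals are 95% Clopper-Pearson limits on the reads, which cover counting error only.

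On the CPM scale most glutathione and thioredoxin genes of the set were higher in cKO than in WT under NT, LPS and IL-4. In NT this depended on the scale, since on the TPM scale only Gclm (0.41) and Prdx1 (0.36) of them passed the fold rule and Slc7a11 (0.16), Srxn1 (0.16), Gclc (0.00) and Txnrd1 (-0.03) did not. Nfe2l2 itself was called under none of the 3 on the CPM scale and after LPS on the TPM scale (0.31). In NT, 6 of the 10 genes were called higher and 1 lower, against 21.9% of 12463 genes tested called higher and 26.1% lower. After LPS, 6 were called higher and 0 lower, against 17.3% and 8.9% of 12386 genes. After IL-4, 5 were called higher and 0 lower, against 14.0% and 10.6% of 13245 genes. The 10 genes had a median log2 difference of 0.33 without treatment, 0.40 with LPS and 0.24 with IL-4, and the medians of all genes tested were -0.01, 0.03 and 0.01. The sum of 7 macrophage markers was lower in cKO in each pair (18054 and 14217 CPM in NT, 13029 and 9397 with LPS, 18384 and 14420 with IL-4), and Lyz2, the locus that carries Cre, made up most of that gap (10950 and 7202, 6902 and 2892, 8941 and 5245 CPM). Without Lyz2 the other 6 markers summed to 7103 and 7014 CPM in NT, 6128 and 6505 with LPS, and 9443 and 9175 with IL-4. In each pair these sums held markers going both ways. In NT, Cd68 was higher in cKO (2555 and 3466 CPM in WT and cKO). Lower there were Mertk (98.8 and 40.4), Fcgr1 (788 and 448), Itgam (860 and 522), Adgre1 (1072 and 872) and Csf1r (1731 and 1666).

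Gclm, the regulatory subunit for glutathione synthesis, had 90.4 CPM in WT and 137 in cKO in NT, 33.7 and 56.2 with LPS, and 84.0 and 106 with IL-4. It was thus higher in cKO in 3 of 3 pairs of libraries, by log2 0.60 (0.52 to 0.68), 0.72 (0.60 to 0.84) and 0.33 (0.25 to 0.41), and called each time, except after IL-4 on the TPM scale (0.23). Its partner Gclc had 44.3 and 52.5 CPM in NT, 6.02 and 8.92 with LPS, and 34.8 and 38.2 with IL-4. The cKO value was again the higher one in each pair, but Gclc was called only after LPS, at 0.50 (0.23 to 0.77), while its difference in NT was 0.24 (0.26, and called, under TMM scaling) and after IL-4 was 0.13.

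Slc7a11, the cystine importer, had 7.75 CPM in WT and 11.2 in cKO in NT, 7.95 and 15.2 with LPS, and 21.9 and 45.0 with IL-4. It was called higher in cKO after LPS, at log2 0.86 (0.63 to 1.09), after IL-4, at 1.005 (0.87 to 1.14), and in NT, at 0.48 (0.23 to 0.73). On the TPM scale its difference was 0.58 after LPS, where Txnrd1 was at 0.79, and 0.16, not called, in NT. These rest on 198 to 1175 counts a library. Among all genes tested, 99.0% after LPS and 98.5% after IL-4 had a lower log2 fold change than Slc7a11.

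Txnrd1, which keeps thioredoxin reduced, had 238 and 295 CPM in NT, 95.1 and 154 with LPS, and 191 and 229.8 with IL-4 in WT and cKO. It was called higher in all 3 pairs, at log2 0.31, 0.69 and 0.27. On the TPM scale its difference in NT was -0.03, and under TMM and median-ratio scaling its call after IL-4 was lost (0.26 each). Srxn1 had 219 and 297 CPM in NT, 107 and 132 with LPS, and 77.9 and 90.0 with IL-4, with calls in NT (0.44) and after LPS (0.30) but not after IL-4 (0.21). Its NT call was lost on the TPM scale (0.16) and its LPS call under TMM (0.25) and median-ratio (0.26) scaling. Prdx1 had 2098 and 2965 CPM in NT, 5921 and 6346 with LPS, and 528 and 679 with IL-4, with calls in NT (0.50) and after IL-4 (0.36) and a difference of 0.10 after LPS that was not called. On the CPM scale each of the 3 genes was higher in cKO in every pair of libraries.

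Nqo1 was low in all BMDM libraries. It had 159 and 180 counts (6.07 and 7.97 CPM) in NT, 47 and 73 counts (1.89 and 3.12 CPM) with LPS, and 18 and 19 counts (0.634 and 0.727 CPM) with IL-4. It was called in NT (0.34, 0.07 to 0.62) and after LPS (0.51, 0.12 to 0.89), with wide limits, and the depth could not show a difference after IL-4.

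The regulators behaved otherwise. Nfe2l2 had 223 and 224 CPM in NT, 87.9 and 103 with LPS, and 247 and 229 with IL-4, and its differences of 0.01, 0.23 and -0.10 all missed the call, although the difference after LPS passed the fold rule on the TPM scale (0.31). Keap1 had 85.0 and 66.1 CPM in NT, 190.3 and 185 with LPS, and 73.4 and 83.7 with IL-4. It was called lower in cKO in NT, at -0.36 (-0.45 to -0.26), and was not called after LPS (-0.04) or IL-4 (0.19). Sod2 had 87.4 and 86.6 CPM in NT and 1269 and 1178 after LPS, neither of them called. After IL-4 it had 211 CPM in WT and 394 in cKO, a log2 difference of 0.90 (0.85 to 0.95) that was called. In the same pair of libraries, 4 LPS-response markers summed to 75.3 CPM in WT and 274 in cKO, and the 8 neutrophil markers to 382 and 514. Their part in the Sod2 difference was not tested.

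**Figure D2:**
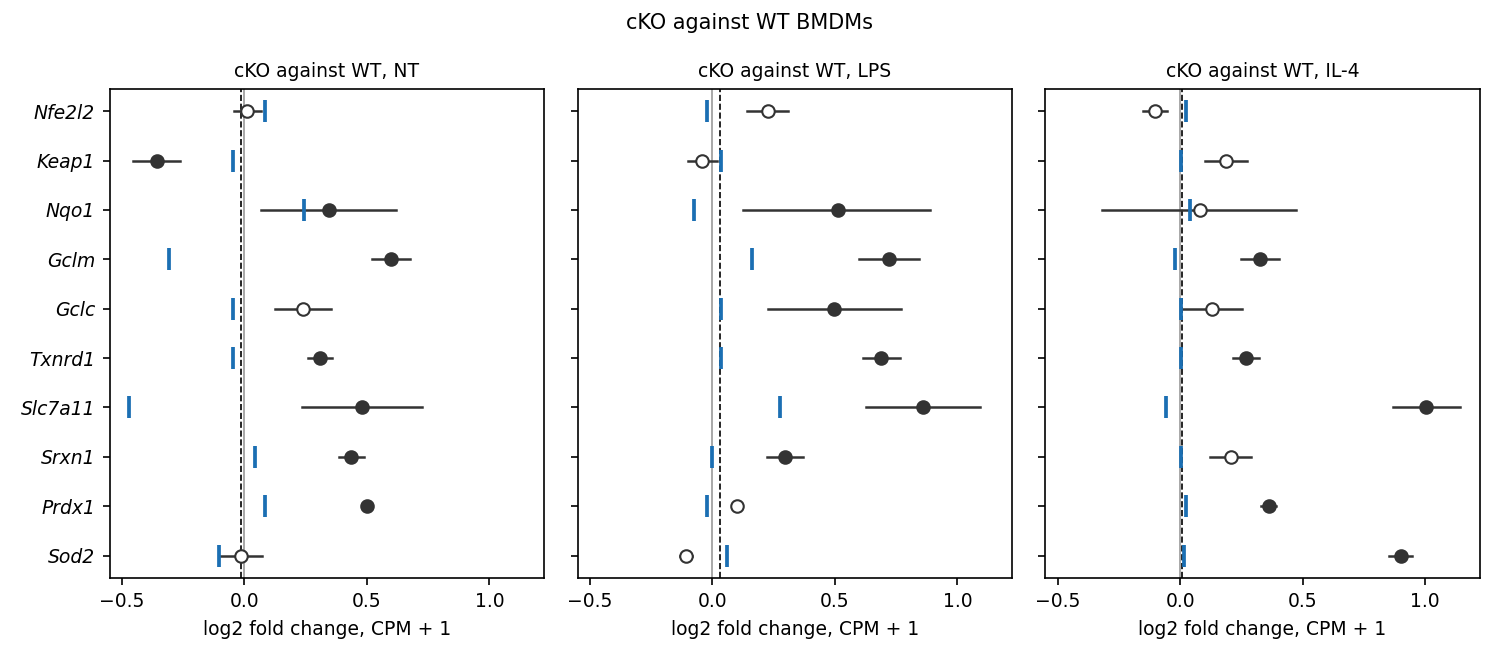
Log2 fold change (CPM plus 1) of cKO against WT in NT, LPS and IL-4, with 95% counting limits as lines. Filled points were called, open points were not, the dashed line is the median of all genes and the blue tick is the median of genes of like length (the same 10% of genes by length). In NT the blue ticks spread from 0.24 for Nqo1 to -0.47 for Slc7a11.

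Gene length moved with the NT comparison. Over all genes, the shortest 10% by deposited length (median 917 bases) had a median log2 difference between cKO and WT of 0.41 and the longest 10% (median 7874 bases) one of -0.47. After LPS the corresponding medians were -0.10 and 0.27, and after IL-4 they were 0.06 and -0.06. Set against genes of like length, an alternative chosen after seeing the data, the NT differences of Slc7a11 and Gclm grew to 0.95 and 0.91, that of Gclc became a call (0.29) and that of Nqo1 ceased to be one (0.10), so that 6 genes were called higher and 1 lower. With LPS the same centring lowered Slc7a11 from 0.86 to 0.58, Gclm from 0.72 to 0.56 and Txnrd1 from 0.69 to 0.66, and the same number of genes, 6, was called higher. On the deposited TPM scale, with the fold rule alone, the NT count changed to 2 higher (Gclm, 0.41, and Prdx1, 0.36) and 1 lower (Keap1, -0.61), Txnrd1 turned to -0.03, and calls higher among all genes went from 45.6% to 22.0% of calls as their median moved from -0.01 to -0.20. On the TPM scale 7 genes were higher after LPS, with Nfe2l2 (0.31) added, and 4 after IL-4, with Gclm (0.23) lost. Scaling by TMM or by the median ratio of the libraries dropped Srxn1 after LPS and Txnrd1 after IL-4 and lowered the share of calls that were higher after LPS from 66.1% to 56.1% and 56.5%. The exact test of edgeR, with the biological variation between libraries set to a coefficient of 0.2, called 0 of the 10 genes in each of the 3 comparisons, against 7, 6 and 5 by the binomial test.

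The response to LPS split the set. In WT BMDMs 3 genes were called higher after LPS than in NT (Sod2, Prdx1 and Keap1) and 6 lower, against 20.7% of 12813 genes called higher and 61.3% lower. In cKO BMDMs 4 were called higher (the same 3 and Slc7a11) and 6 lower, against 23.9% and 59.0% of 12666 genes. The 6 lower genes were Nfe2l2, Nqo1, Gclm, Gclc, Txnrd1 and Srxn1 in both genotypes. The median of all genes was -0.58 in WT and -0.55 in cKO. With TMM or median-ratio scaling that median came to between -0.03 and 0.01, and calls higher went from 25.2% to 49.6% and 50.8% of calls in WT and from 28.8% to 49.4% and 51.1% in cKO. The TPM scale gave 24.5% in WT and 37.5% in cKO. Under each of these scalings the 6 genes were still called lower.

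Sod2 went from 87.4 to 1269 CPM in WT and from 86.6 to 1178 in cKO, log2 changes of 3.84 (3.78 to 3.91) and 3.75 (3.69 to 3.82), and 98.9% and 98.4% of all genes had a lower value. Prdx1 went from 2098 to 5921 CPM and from 2965 to 6346, changes of 1.496 and 1.10. Keap1, the inhibitor of NRF2, went from 85.0 to 190.3 CPM and from 66.1 to 185, changes of 1.15 and 1.47. Relative to the median of all genes these changes were 4.43 and 4.30 for Sod2, 2.08 and 1.65 for Prdx1, and 1.74 and 2.02 for Keap1.

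Gclc was the lowest of the set, from 44.3 to 6.02 CPM in WT and from 52.5 to 8.92 in cKO, log2 changes of -2.69 (-2.91 to -2.47) and -2.43 (-2.63 to -2.24). Only 3.05% and 5.10% of all genes had a lower value, and against the median of all genes its changes were -2.11 and -1.88. The other lower genes lay closer to the bulk of genes. Relative to that median, Gclm was at -0.81 in WT and -0.73 in cKO, Nfe2l2 at -0.75 and -0.57, Txnrd1 at -0.73 and -0.38, Nqo1 at -0.71 and -0.58, and Srxn1 at -0.44 and -0.62. Slc7a11 had a change of 0.03 in WT, which was not called, and of 0.41 in cKO, which was; relative to the median these were 0.62 and 0.96, and it was called higher in WT too under TMM (0.64) and median-ratio (0.66) scaling.

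After IL-4, Slc7a11 and Sod2 were higher and Prdx1, Srxn1, Nqo1, Gclc and Txnrd1 lower than in NT in both genotypes. In WT 2 genes were called higher and 5 lower, against 38.8% of 13090 genes higher and 21.8% lower. In cKO 3 were called higher and 6 lower, against 42.4% and 24.9% of 12966 genes. The median of all genes was 0.15 in WT and 0.17 in cKO, and under TMM and median-ratio scaling the calls that were higher went from 64.1% to 50.1% and 49.6% in WT and from 62.97% to 50.4% and 51.0% in cKO. On the TPM scale they were 65.01% and 76.6%, and in cKO 4 of the 10 genes were then higher and 3 lower, with Gclm (-0.14), Gclc (-0.19) and Txnrd1 (-0.03) no longer called and Nfe2l2 (0.28) called.

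Prdx1 went from 2098 to 528 CPM in WT and from 2965 to 679 in cKO, log2 changes of -1.99 (-2.01 to -1.96) and -2.13 (-2.15 to -2.10). Srxn1, which repairs peroxiredoxins, went from 219 to 77.9 and from 297 to 90.0 CPM, changes of -1.48 and -1.71. Nqo1 went from 159 to 18 counts and from 180 to 19 counts, changes of -2.11 and -2.38. For these 3 genes at most 2.92% of all genes had a lower value in either genotype. Gclc (-0.34 and -0.45) and Txnrd1 (-0.32 and -0.36) were called lower in both genotypes by smaller margins, and Gclm in cKO (-0.38) but not in WT (-0.11), where it was called at -0.26 under TMM and -0.27 under median-ratio scaling.

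Slc7a11 rose from 7.75 to 21.9 CPM in WT and from 11.2 to 45.0 in cKO, changes of 1.39 (1.18 to 1.60) and 1.91 (1.73 to 2.10). Sod2 rose from 87.4 to 211 CPM and from 86.6 to 394, changes of 1.26 and 2.17. Nfe2l2 moved by 0.15 and 0.03, neither called. Keap1 was at -0.21 in WT, not called, and at 0.34 in cKO, called. Under TMM and median-ratio scaling this turned around, with WT called lower at -0.37 and cKO at 0.15 without a call. Against genes of like length, Keap1 in cKO was likewise at 0.15, short of the fold rule. The neutrophil markers named above are higher in both IL-4 libraries than in NT, and their part in these differences was not tested.

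The responses of both genotypes ran in the same direction for each gene called in both. For IL-4, the log2 change was higher in cKO than in WT by 0.91 for Sod2 (2.17 and 1.26), by 0.54 for Keap1 (0.34 and -0.21) and by 0.52 for Slc7a11 (1.91 and 1.39). The shortest and longest 10% of genes had median IL-4 changes of -0.25 and 0.73 in cKO and 0.10 and 0.32 in WT. Against genes of like length, Slc7a11 was at 1.18 in cKO and 1.07 in WT, so most of its gap was lost. Sod2 was then at 1.93 and 1.16, and Keap1 at 0.15 and -0.33. For LPS, the rise of Prdx1 was smaller in cKO (1.10, against 1.496 in WT), and the fall of Txnrd1 was also smaller (-0.93, against -1.32). Slc7a11 was at 0.41 in cKO and 0.03 in WT. The shortest and longest 10% of genes had median LPS changes of -0.37 and -0.83 in WT and -0.87 and -0.16 in cKO. Set against genes of like length, the Slc7a11 order turned around (0.57 in cKO, 0.86 in WT). Prdx1 (1.71 and 2.01) and Txnrd1 (-0.35 and -0.70) kept theirs. None of these gaps was tested, since each response rests on 1 library of each kind.

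**Figure D3:**
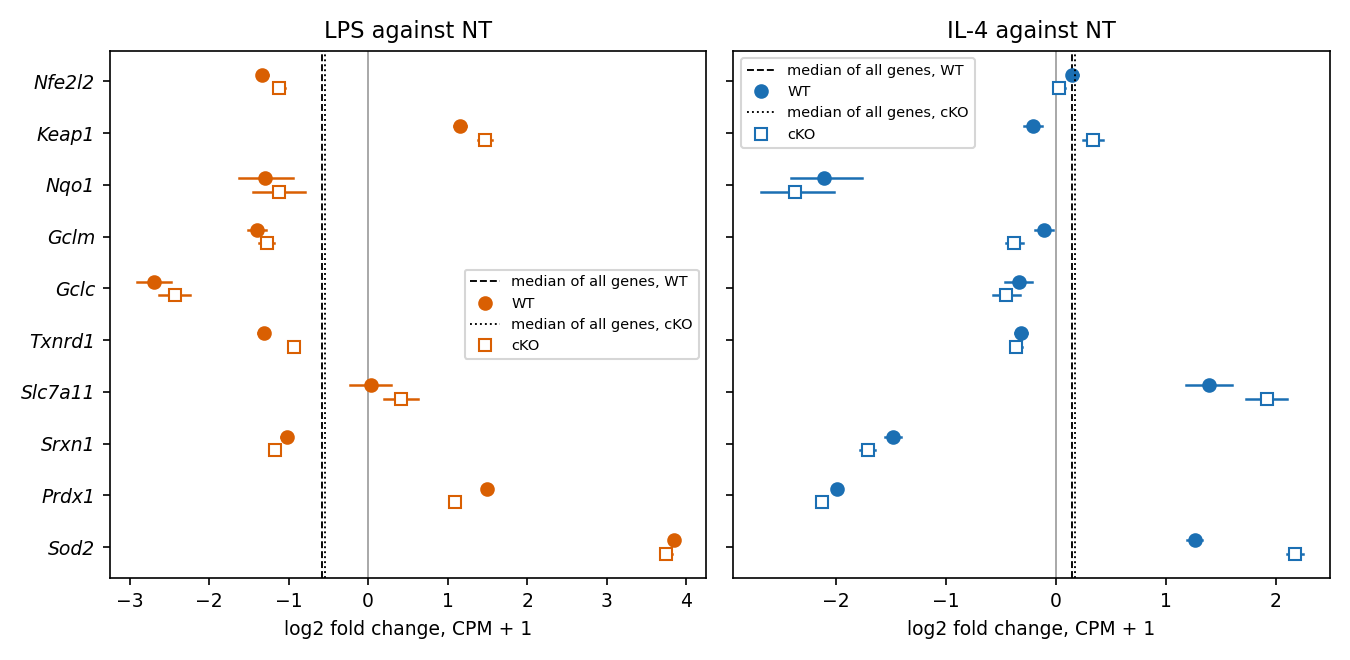
Log2 fold change (CPM plus 1) of LPS against NT and of IL-4 against NT, circles for WT and squares for cKO, with 95% counting limits as lines and vertical lines at the medians of all genes. LPS spreads the set from -2.69 (Gclc) to 3.84 (Sod2) in WT, and IL-4 from -2.11 (Nqo1) to 1.39 (Slc7a11).

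Over the 6 BMDM libraries, Sod2, Prdx1 and Gclc had the widest ranges of log2 CPM plus 1 (3.86, 3.58 and 2.93). By root mean square distance of values centred on their own mean, among 9933 genes, Rasgrf1 (0.18), Plbd1 (0.18) and Tma16 (0.25) were closest to Sod2. Tmem171 (0.12), Basp1 (0.17) and St3gal5 (0.22) were closest to Prdx1. Utp4 (0.051), Utp18 (0.057) and 2810004N23Rik (0.058) were closest to Gclc. With 6 libraries and many genes, this is a description of like profiles only.

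In the Zmynd8 libraries described as Raw264.7, the Zmynd8 KO and D/E-A lines were set against the line rescued with the wild-type protein. Nqo1, Gclm, Slc7a11, Txnrd1, Srxn1 and Prdx1 were lower, and Nfe2l2 and Sod2 higher, in both. Gclc was called lower in Zmynd8 KO only. All of these libraries held the neutrophil, B cell and Xist reads given above. The deposited values are reads scaled by 1 size factor per library, and calls rested on a 1.2-fold difference between values plus 1, with no test. In D/E-A against WT Zmynd8, 2 genes were called higher and 6 lower, against 36.7% of 12771 genes higher and 35.9% lower. In Zmynd8 KO against WT Zmynd8, 3 were called higher and 7 lower, against 33.8% and 36.5% of 21302 genes. The D/E-A table lists no gene with under 21 WT Zmynd8 reads, so genes seen mainly in D/E-A are missing from its shares. The other Raw264.7 tables keep genes down to a mean value of 1, where a few reads can pass the fold rule. The median of the 10 genes was -0.46 in D/E-A and -0.38 in Zmynd8 KO, and that of all genes 0.02 and -0.03. Both comparisons use the same WT Zmynd8 library, so a value particular to that library would appear in each.

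Nqo1 had 82 reads in WT Zmynd8, 25 in D/E-A and 38 in Zmynd8 KO, log2 differences from WT Zmynd8 of -1.61 (-2.29 to -0.97) and -1.21 (-1.79 to -0.65). Srxn1 had 843, 434 and 603 reads, with differences of -0.89 and -0.60. Prdx1 had 14991, 8810 and 12614 reads (-0.70 and -0.37), Slc7a11 had 4157, 2526 and 2996 (-0.65 and -0.59), and Gclm had 877, 542 and 664 (-0.63 and -0.52). In RPM, each of these 5 genes was highest in the WT Zmynd8 library and lowest in the D/E-A library. The D/E-A and Zmynd8 KO libraries lay close for Slc7a11 (141 and 142 RPM) and Gclm (30.2 and 31.6 RPM). Txnrd1 (4357, 3386 and 3689 reads) was at -0.30 and -0.36, and Gclc (241, 204 and 201 reads) at -0.17, not called, and -0.38.

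Nfe2l2 had 2317 reads in WT Zmynd8, 3455 in D/E-A and 3786 in Zmynd8 KO, differences of 0.64 (0.57 to 0.72) and 0.59 (0.51 to 0.66). Keap1 (2701, 3062 and 3803 reads) was at 0.25, not called, and 0.37, which fell to 0.19 and was not called against genes of like length. Sod2 (22580, 26635 and 32192 reads) was at 0.31 and 0.39. Thus the transcription factor was higher in the lines where most of its targets were lower.

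Several measures moved with these differences. The 8 neutrophil markers summed to 10384 RPM in WT Zmynd8, 4422 in D/E-A and 6966 in Zmynd8 KO, and 7 macrophage markers to 4302, 8682 and 5637. Of 4 LPS-response markers, Nos2 (501, 2739 and 1206 RPM) and Cxcl10 (2563, 3840 and 3836) were higher in both lines, and Il1b (1360, 1209 and 1286) and Tnf (422, 305 and 343) were lower. Rn18s-rs5, a gene related to 18S ribosomal RNA, took 13.8%, 6.50% and 11.1% of reads. The shortest 10% of genes had a median difference of -0.73 in D/E-A and -0.28 in Zmynd8 KO, and the longest 10% 0.55 and 0.22. Set against genes of like length, 7 genes were lower in each line, Slc7a11 at -1.20 and -0.81 and Gclm at -1.07 and -0.76, Nfe2l2 stayed higher at 0.66 and 0.50, and Sod2 was no longer called at 0.06 and 0.19. The part of these markers in the differences was not tested.

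In the p65 lines Sod2 was higher in K122R and lower in p65 KO than in WT p65, and Prdx1 was higher in both. In K122R against WT p65, 5 genes were called higher and 1 lower, against 30.8% of 19670 genes higher and 32.5% lower. In p65 KO against WT p65, 2 were called higher and 2 lower, against 26.3% and 25.7% of 19879 genes. The shares over all genes here include genes with few reads, down to a mean value of 1. Both share the WT p65 library, and their medians over the 10 genes were 0.28 and 0.10, against 0.01 and 0.01 for all genes. The gene called lower in K122R was Nqo1, with 3 reads in WT p65, 0 in K122R and 3 in p65 KO, which is too few for a direction.

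Sod2, the mitochondrial superoxide dismutase, had 2315 reads in WT p65, 4053 in K122R and 1379 in p65 KO, with log2 differences of 0.86 (0.79 to 0.94) and -0.70 (-0.80 to -0.60). The K122R library was thus above and the p65 KO library below the rescue with wild-type p65. Rela mRNA stood in the same order, as given above, and its part in the Sod2 difference was not tested. Srxn1 (499, 776 and 561 reads) was at 0.69, called, and 0.22, not called. Prdx1 (6526, 9325 and 7820 reads) was called in both, at 0.57 and 0.31.

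Nfe2l2 (971, 1359 and 1070 reads) was called in K122R at 0.54 and not in p65 KO at 0.19, and Gclm (314, 420 and 334 reads) likewise at 0.47 and 0.14. Keap1 (2666, 2720 and 3201 reads) was called in p65 KO at 0.31 and not in K122R at 0.08. Slc7a11 (5883, 5839 and 4431 reads) was called lower in p65 KO at -0.36, a call lost against genes of like length (-0.18), and stood at 0.04 in K122R. Txnrd1 (8009, 7733 and 6701 reads) and Gclc (883, 745 and 892 reads) were called in neither, with values from -0.21 to 0.06. Scaled by library totals, the median of all genes in K122R was -0.17, calls higher went from 48.6% to 33.7% of calls, and Gclc was called lower at -0.33.

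**Figure D4:**
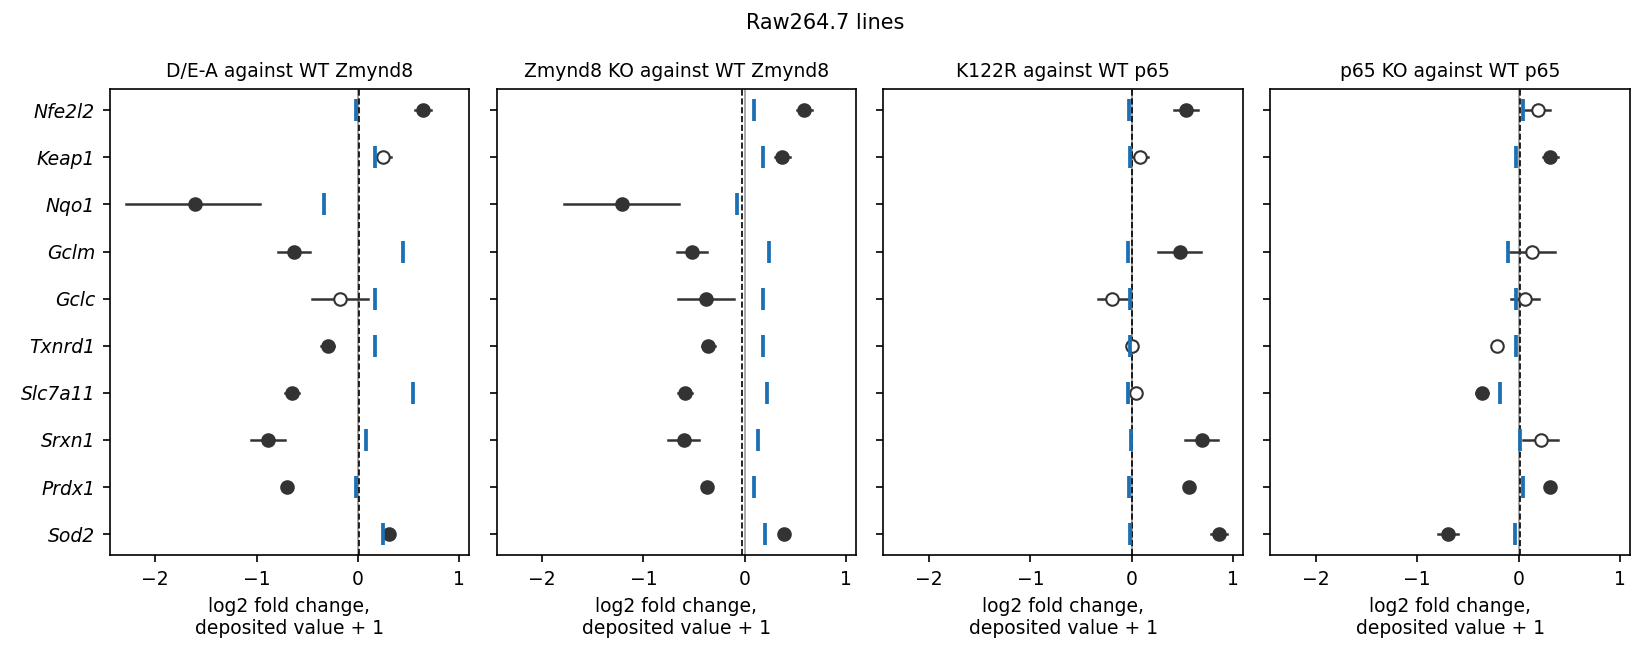
Log2 fold change (deposited value plus 1) in the 4 Raw264.7 comparisons, with 95% counting limits as lines, filled points past a fold change of 1.2, the dashed line at the median of all genes and blue ticks at the median of genes of like length. Nqo1 is left out of the p65 comparisons, where it had 0 to 3 reads; the points for Gclm, Slc7a11, Srxn1 and Prdx1 lie below 0 in both Zmynd8 panels.

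A list of 57 other genes of NRF2 biology and antioxidant defence was counted beside the set, in 6 groups. In cKO against WT, 29 of 52 tested were called higher and 5 lower in NT, 4 and 11 of 50 after LPS, and 7 and 11 of 53 after IL-4, with medians of 0.30, -0.03 and 0.06. Among all genes the shares called higher and lower were 21.9% and 26.1% in NT, 17.3% and 8.9% with LPS, and 14.0% and 10.6% with IL-4. After LPS, therefore, the list leaned lower in cKO while 6 of the 10 genes above were higher. The highest in NT were Gstm2 (1.04) and Mgst3 (0.93), which conjugate glutathione, and the lowest Bach1 (-0.84), a repressor at AREs, and Nfe2l1 (-0.59), a relative of NRF2. After LPS the ends were Abcc1 (0.77), an exporter of glutathione conjugates, Cat (0.42), which encodes catalase, Ephx1 (-0.89) and Cbr1 (-0.47), and after IL-4 they were Prdx5 (0.45), Maff (0.36), Ephx1 (-0.997) and Ggt5 (-0.73).

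By group in NT, 10 of 15 glutathione genes, 7 of 9 thioredoxin and peroxiredoxin genes, 6 of 12 genes of heme, iron and detoxification, 2 of 6 genes of NADPH supply and 2 of 8 NRF2 partners and regulators were called higher. Called lower were 3 of the NRF2 partners and regulators, 1 of the thioredoxin and peroxiredoxin genes and 1 of the genes of heme, iron and detoxification. Both tested genes among superoxide dismutases and catalase were called higher. How far gene length or the TPM scale moves the counts of this list was not tested.

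After LPS in WT, 13 of 52 were called higher and 31 lower (median -0.40), and in cKO 10 and 34 (median -0.84), beside 20.7% and 61.3% of all genes in WT and 23.9% and 59.0% in cKO. Under median-ratio scaling these became 27 and 20 in WT and 19 and 25 in cKO, so the lean of the list depended on the scaling. Prdx5 (2.33 and 2.18) and Hmox1 (2.01 and 1.51), which encodes the heme-degrading enzyme, were highest in both genotypes, and Mgst3 (-2.65 and -4.06) and Gpx1 (-2.52 and -3.03), a glutathione peroxidase, were lowest. After IL-4, 14 of 53 were called higher and 23 lower in WT (median -0.13), and 11 and 34 in cKO (median -0.50), beside 38.8% and 21.8% of all genes in WT and 42.4% and 24.9% in cKO. Ggt5 (2.14) and Gsto1 (1.06) were highest and Gstm1 (-1.55) and Hmox1 (-1.07) lowest in WT, while Bach1 (1.34) and Nfe2l1 (1.28) were highest and Gstm2 (-2.37) and Gstm1 (-2.10) lowest in cKO.

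For the Raw264.7 lines the limits on the shares of all genes given above hold here too. In these lines, 9 of 51 were called higher and 28 lower in D/E-A (median -0.29), and 10 of 57 and 22 in Zmynd8 KO (median -0.10). Beside them stood 36.7% and 35.9% of all genes in D/E-A and 33.8% and 36.5% in Zmynd8 KO. Cat (1.198 and 0.54) and Cul3 (0.90 and 0.49), a subunit of the ligase that KEAP1 serves, were highest in both. The lowest were Mgst2 (-1.41) and Osgin1 (-1.38) in D/E-A and Hmox1 (-1.12) and Osgin1 (-0.86) in Zmynd8 KO. In K122R, 13 of 51 were higher and 13 lower (median 0.03), beside 30.8% and 32.5% of all genes, with Hmox1 (1.54) and Prdx5 (1.08) at the top and Me1 (-0.50) and Prdx4 (-0.45) at the bottom. In p65 KO, 10 of 52 were higher and 5 lower (median 0.13), beside 26.3% and 25.7% of all genes, with Glrx (0.75) and Hmox1 (0.68) highest and G6pdx (-0.31), which feeds the NADPH supply, lowest.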

How the data were processed

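RNA-seq was measured in 12 libraries, and the other samples of the series were not analysed here. For BMDMs the authors used TopHat and the mm10 transcriptome, and the deposited tables give an estimated count and a TPM value per gene. For Raw264.7 cells the authors deposited 1 normalized signal value per gene and library. Dividing out a size factor per library gave whole reads within 0.1, with exceptions in Zmynd8 KO (99.99% of values were whole), among them Zmynd8 itself. The tool that made the deposited values is not given in the sources used here. The authors' own fold changes and p-values were left out, as were 2 per-sample columns that no label names.

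Estimated counts were rounded and scaled to library totals (22597421 to 28386625). CPM plus 1 was used for log2 fold changes, or TPM plus 1 where TPM was used. The low-value filter was a mean of 10 counts in BMDMs and a mean of 1 in Raw264.7 cells. Calls used a fold change of at least 1.2 and, in BMDMs, a two-sided exact binomial test with Benjamini-Hochberg adjusted p under 0.05; since the Raw264.7 tables hold signal and not counts, the fold rule alone was applied there, with an exact test on recovered reads as an alternative. The binomial test was run on simulated data drawn with counting error only, so that check says nothing about variation between animals or cultures. Alternatives were a pseudocount of 0.1, no filter, TMM and median-ratio scaling, folds of 1.5 and 2, and the exact test of edgeR with an assumed coefficient of variation. TPM and centring on the same 10% of genes by length (in Raw264.7 cells, genes averaging 10 or more) were added after seeing the data. Length was known for 86.7% to 100% of the genes used. Named genes were all 10 members, and per comparison the 2 highest and 2 lowest called genes of the longer list with a mean of at least 100; the 3 closest genes were named for the 3 members of widest range. Members, lists and tests were chosen with earlier results of these data known. Promoters came from RefSeq (GRCm38.p6), with the 250 bases before each start. Python 3.11.15, SciPy 1.17.1, R 4.3.3, edgeR 4.0.16 and DESeq2 1.42.0 were used.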

Additional observations from a re-analysis of the deposited data

How the results depend on the processing

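Each group has 1 library. No paired analysis over the 3 comparisons of cKO with WT was run, and no library was left out. Counts of called members that moved by more than 1.5 times did so mostly under stricter folds. At a fold of at least 1.5, 1 member was called in cKO against WT in NT (from 7), 3 after LPS (from 6) and 2 after IL-4 (from 5), 5 in IL-4 against NT in cKO (from 9), 4 in Zmynd8 KO (from 10), 3 in K122R (from 6) and 1 in p65 KO (from 4). At a fold of at least 2 these counts were 0, 0, 1, 5, 1, 1 and 0, and 1 in D/E-A (from 8). Under the exact test of edgeR with an assumed coefficient of variation of 0.2 they were 0 in each of the 3 comparisons of cKO with WT and 5 in IL-4 against NT in cKO. On the TPM scale, added after seeing the data, 3 were called in NT, where Txnrd1 turned from 0.31 to -0.027 and the median of all genes moved by -0.19; the cause was not tested. The other totals of called members stayed within 1.5 times. For the 57 other genes another scaling was the only alternative run (median ratio in BMDMs, library totals in Raw264.7 cells), and their totals stayed within 1.5 times under it. Their split moved further under the median ratio, to 2 higher and 11 lower in cKO against WT after LPS (from 4 and 11) and, in LPS against NT, to 27 higher and 20 lower in WT (from 13 and 31) and to 19 and 25 in cKO (from 10 and 34). The binomial test reads counting error only, and differences between animals or cultures cannot be assessed within a condition that has 1 library. The 3 pairs of cKO and WT libraries differ in treatment as well, and their spread was not used as an error.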
